A study of Mus musculus with 2 samples.

Results

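Natural killer (NK) cells are described here in 2 mouse single-cell RNA libraries whose tissue label is colon. Members were chosen by measured counts: a barcode counted as one when it had at least 1000 UMIs (unique molecules counted), at least 3 UMIs of Ncr1, Klrb1c and Klre1 together, at most 1 UMI of Cd3d, Cd3e and Cd3g together, and fewer than 20 UMIs per 10000 of C1qa, C1qb, C1qc, Csf1r and Cd68 together. This gate held 343 of the 15373 barcodes, 96 of 6573 in the library labelled KO and 247 of 8800 in the WT library. The genotype labels name a Runx3 knockout and a Runx3 wild type. The sources used here do not give strain, age, treatment, number of animals or the deleted part of the gene. With 1 library per group there is no replicate check, no difference below was tested, and every interval is a 95% interval that covers counting error only. Levels are counts per 1000000 UMIs (CPM). Ratios are on the log2 scale, KO members over WT members, after adding 5 CPM to both.

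NK cells are innate lymphocytes that kill infected or transformed cells without a T cell receptor. They read the balance of activating and inhibitory receptors, release perforin and granzymes from cytotoxic granules, and secrete interferon gamma and chemokines that draw in other leukocytes. RUNX3 is a transcription factor of cytotoxic lymphocytes that binds DNA with its partner CBFB. In mice NK cells and the related type 1 innate lymphoid cells depend on it, and NK cells also on T-bet and Eomes.

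Members had a median of 7485.5 UMIs in the library labelled KO (range 2515 to 34954) and 6307 UMIs in the WT library (1623 to 36687), and a median of 2770 and 2492 genes. All barcodes with at least 1000 UMIs had medians of 9979 and 8697 UMIs. Among the members of the library labelled KO, 23 had UMIs of Y-linked genes and none of Xist, 58 had the reverse, 5 had both and 10 neither. In the WT library 214 members had UMIs of Y-linked genes and none of Xist, 0 had the reverse and 33 neither. The composition by sex thus differed between the libraries, and its part in the differences below was not tested except where values from Y-linked-only members are given. The libraries shared 17 barcodes, of which 2 belonged to KO members and 1 to a WT member. A Ptprc UMI, the mark of white blood cells, was found in 92.4% and 93.2% of barcodes, and at least 3 UMIs of the epithelial genes Epcam, Krt8, Krt18 and Krt19 in 0.336% and 0.580%, so colon epithelium was nearly absent.

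The members carried the NK markers, and few UMIs of the T cell co-receptor and Cd3 genes. The rule used Ncr1, Klrb1c and Klre1, so their levels describe the gate. Ncr1, the activating receptor NKp46, had 284 CPM in KO members and 322 CPM in WT members, against 2.67 and 4.34 CPM in barcodes outside the gate. Klrb1c, which encodes NK1.1, had 231 and 251 CPM, and Klre1, a lectin-like receptor, 331 and 451 CPM. Of the markers the rule did not use, Gzmc had 8301 CPM in KO members and 8577 CPM in WT members, Gzma 1423 and 1450 CPM, Prf1 499 and 552 CPM, and Xcl1 2041 and 1478 CPM. Each stood above its level outside the gate, from 20.2-fold for Xcl1 and 20.1-fold for Prf1 in WT to 174-fold for Gzma in the library labelled KO. The 6 genes Cd3d, Cd3e, Cd3g, Cd4, Cd8a and Cd8b1 summed to 4 UMIs over KO members and 27 UMIs over WT members, with the Cd3 genes limited by the rule. Other T cell markers were present, and the list of 14 summed to 1132 CPM in KO members and 1151 CPM in WT members. Trbc1 and Trbc2, constant segments of the T cell receptor beta chain, had 646 and 224 CPM in KO members and 643 and 240.4 CPM in WT members, and Cd28, a co-stimulatory receptor, 227.5 CPM in KO and 211 CPM in WT. Of 10 markers of type 2 and type 3 innate lymphoid cells, the cytokines Il22, Il17a, Il13 and Il5 had 0 UMIs in both, while the list summed to 158 UMIs (168 CPM) in KO members and 300 UMIs (158 CPM) in WT members, with 2 genes past the filter on low counts. Members just inside the receptor limit, with exactly 3 UMIs, numbered 7 in the library labelled KO and 27 in WT, and barcodes just outside it, with 2 UMIs and all else met, numbered 4 and 27.

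**Figure D1:**
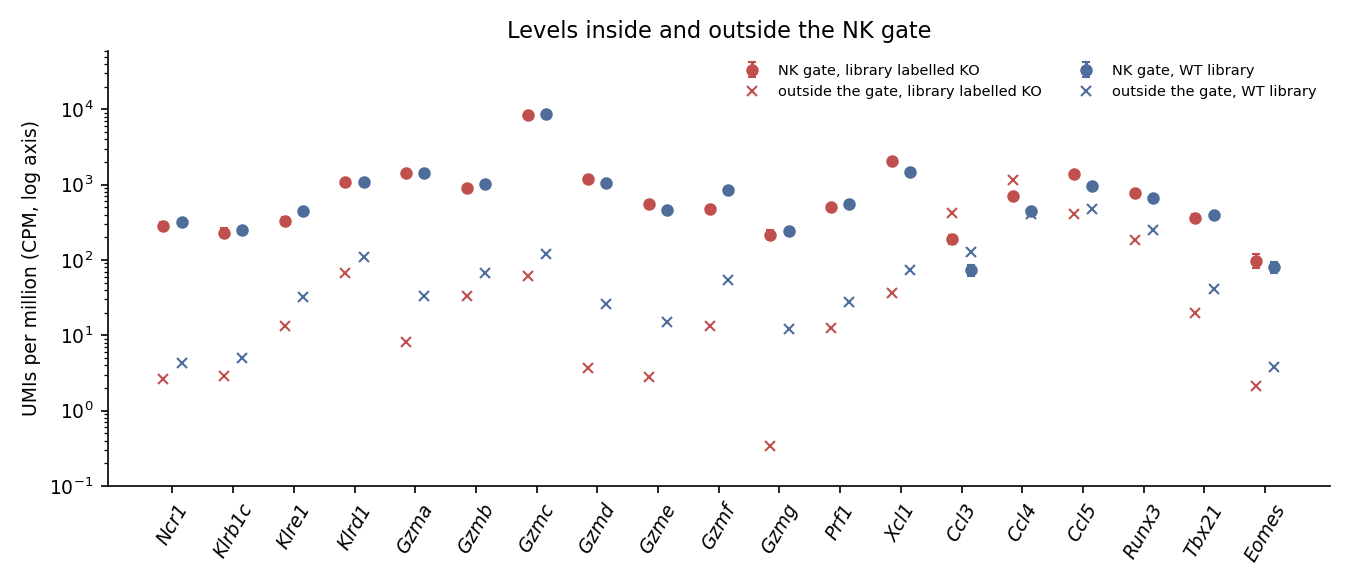
Levels of marker, granzyme, chemokine and transcription factor genes in CPM on a log axis, as circles for NK gate barcodes with 95% counting intervals and as crosses for all other barcodes, with the library labelled KO left of the WT library. The cytotoxic genes lie far above the crosses in both libraries, whereas Ccl3 in members lies below its level outside the gate (188 against 419 CPM in the library labelled KO, 73.6 against 128 CPM in WT).

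NK gate barcodes made up a smaller share of the library labelled KO. The share was 1.79% of barcodes with at least 1000 UMIs in the library labelled KO (96 of 5357, exact binomial 1.45 to 2.18%) and 2.87% in WT (247 of 8616, 2.52 to 3.24%), a ratio of 0.625 (0.489 to 0.794). The macrophage gate needs the same macrophage genes at 20 or more per 10000 and at most 1 Cd3 UMI. Among barcodes outside it, the NK gate shares were 4.34% (96 of 2211) and 7.001% (247 of 3528). Among barcodes with a Y-linked UMI and no Xist UMI they were 1.78% (23 of 1294) and 3.05% (214 of 7014). After every barcode was thinned to 1000 UMIs and the receptor limit set to 1 UMI, they were 1.05% and 2.23%, a ratio of 0.469. A receptor UMI remained after thinning in 48 of 96 KO members (50%) and 160 of 247 WT members (64.8%). The part of this unequal recovery in the ratio of 0.469 was not tested. The CD8 T gate needs at least 3 Cd3 UMIs, at least 2 of Cd8a and Cd8b1, and at most 1 of Ncr1, Klrb1c and Klre1. It also needs macrophage genes under 20 per 10000. This gate held 1.68% and 3.75% of barcodes, a ratio of 0.448 (0.351 to 0.568), and the macrophage gate 58.7% and 59.1%. As background, at least 3 receptor UMIs were found in 0.763% and 1.30% of macrophage gate barcodes, at median depths of 10988.5 and 9458 UMIs. They were found in 0 of 60 and 0 of 90 mesenchymal gate barcodes, for which a limit of 3 counts allows shares of up to 5% and 3.33% (exact binomial upper bounds 5.96% and 4.02%).

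**Figure D2:**
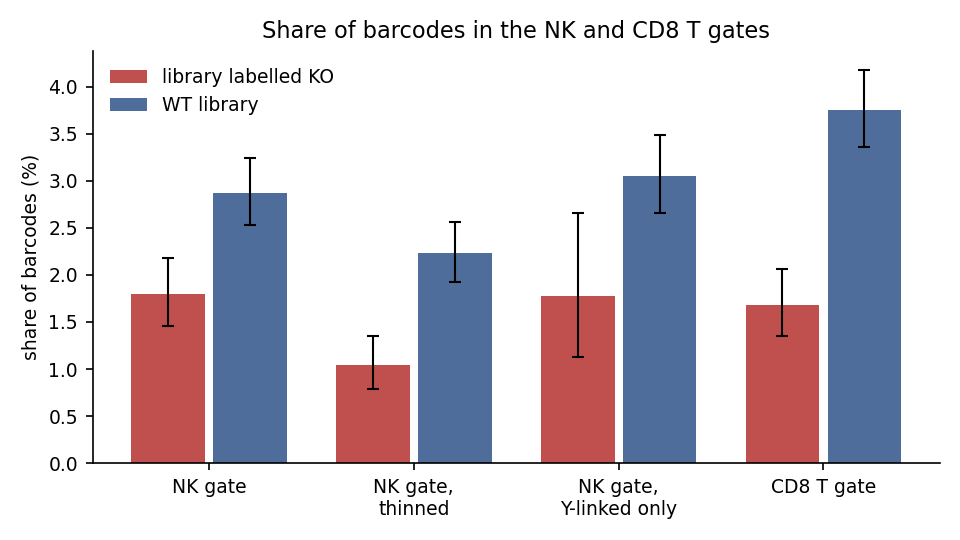
Share of barcodes in percent for the NK gate, the NK gate after thinning to 1000 UMIs, the NK gate among barcodes with Y-linked and no Xist UMIs, and the CD8 T gate, with exact binomial 95% intervals and the library labelled KO left of WT. The NK gate share is 1.79% against 2.87%, and the intervals of the thinned shares, 0.791 to 1.36% and 1.93 to 2.56%, do not overlap. Thinning left a receptor UMI in 50% of KO members and 64.8% of WT members.

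Runx3 transcripts were present in NK members of both libraries at similar levels. Runx3 (ENSMUSG00000070691, chromosome 4, 135120652 to 135177990, plus strand, mm10) had 781 CPM in KO members and 667 CPM in WT members, a log2 ratio of 0.23. A Runx3 UMI was found in 91.7% of KO members and 91.9% of WT members. With members thinned to 1000 UMIs the shares were 49.0% (38.6 to 59.4%) and 43.3% (37.1 to 49.8%), whose intervals overlap. Outside the gate the level was 185 CPM in the library labelled KO and 249 CPM in WT. Counts are per gene, so tags from outside a deleted part would be counted alike, and these values do not settle the label. Runx1 had 720 and 729 CPM, Runx2 299 and 321 CPM, and Cbfb 99.9 and 105 CPM.

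Across the genes of the members the libraries were close. Of 6725 genes that reached 50 UMIs over all members and were detected in 5% or more of either library's members, 57 (0.848%) were at least 2-fold higher in KO members and 51 (0.758%) at least 2-fold lower, and 45% lay above and 55% below a ratio of 0. Among the 680 genes at least 2-fold higher inside the gate than outside it in both libraries, called NK-enriched here, 0 were at least 2-fold higher (0%) and 3 at least 2-fold lower (0.441%), while 235 (34.6%) lay above and 445 (65.4%) below a ratio of 0. These were Lzts1 (17.0 CPM in KO members, 47.9 CPM in WT members, log2 ratio -1.26), the Ly49 receptor gene Klra3 (26.6 and 62.1 CPM, -1.09) and Itm2a (8.50 and 22.6 CPM, -1.03). In Y-linked-only members the log2 ratios were -0.38 for Lzts1 and -0.10 for Klra3. Counts of Klra3 are uncertain, since 13.8% of its 50-base words occur in other Ly49 transcripts. The highest among NK-enriched genes were Prss2 (0.90), Il27ra (0.76), Cd55 (0.70), Myo16 (0.70) and Bahcc1 (0.66). Next came Ccdc184 (0.63), Ctla2b (0.61), Zfp983 (0.59), Klra1 (0.57) and Klrg1, an inhibitory receptor of mature NK cells (0.56). Without the top barcode of each library Prss2 was at -0.15, Myo16 at 0.29 and Bahcc1 at 0.26. The others then lay between 0.47 and 0.72. After Itm2a the lowest were Klf12 (-0.85), Ptpn3 (-0.83), Alad (-0.82), Avil (-0.82), Gzmf (-0.80), Rab27b (-0.80) and Slc14a1 (-0.80). A gene at its outside level in 1 library could not enter the NK-enriched set. That filter limits how many of its genes can pass 2-fold.

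The genes with the largest ratios over all genes were not NK-enriched, and several rested on 1 barcode. Slpi, a secreted protease inhibitor, had 246 UMIs in KO members, 224 of them in 1 barcode, and 1 UMI in WT members. Cxcl3, a neutrophil-attracting chemokine, had 169 UMIs, 160 in 1 barcode, against 3 UMIs in WT members. Thbs1, which encodes thrombospondin 1, had 275 UMIs in KO members, 231 in 1 barcode, and 85 in WT members, and its log2 ratio of 2.58 was 0.54 without the top barcode of each library. Il1rn (log2 ratio 3.49), Ptgs2 (3.27), Chil3 (3.11), Inhba (3.06), Il1a (2.69), Nrg1 (2.68) and Vcan (2.35) completed the 10 highest. Chil3 had 72 of its 96 KO UMIs in 1 barcode. Without the top barcode of each library the ratios from Il1rn to Vcan lay between 1.66 (Chil3) and 2.67 (Ptgs2). Outside the gate the 10 highest genes were also higher in the library labelled KO. For example, Il1rn had 289 CPM against 149.6 CPM in WT and Ptgs2 468 against 217 CPM. The lowest were Plxnc1, Strip2, Lima1, Tbc1d8, Zfp710, Wdfy4, Adam19, Plcl1, Mctp1 and Tbc1d4, with log2 ratios of -2.14 to -1.50. Plxnc1 had 8.50 CPM in KO members and 54.7 CPM in WT members. In WT members 50 of 141 Wdfy4 UMIs and 19 of 63 Lima1 UMIs were in 1 barcode each. Without the top barcode of each library the 10 ratios were -2.45 to -1.53. Macrophage markers summed to 1066 CPM in KO members and 1147 CPM in WT members. The macrophage genes of the gate went the other way, with a median of 2.96 UMIs per 10000 in KO members and 2.07 in WT members. None of their UMIs was found in 9 of 96 KO members and 55 of 247 WT members. Of the 10 macrophage markers that passed the filter, 7 were higher and 3 lower, beside 45% and 55% of all 6725 genes. Cd14 had 174 and 55.2 CPM and Lyz2 199 and 562 CPM. The list includes the macrophage genes of the gate, whose levels the rule limits. Fibroblast markers summed to 416 and 198 CPM, mostly Col3a1, which had 241 of its 315 KO UMIs and 180 of its 297 WT UMIs in 1 barcode each and 80.1 and 62.2 CPM without them, and dendritic cell and MHC class II markers to 3587 and 4652 CPM. S100a9, Cd79a, Krt8, Krt19, Krt20 and Lum, which mark neutrophils, B cells, epithelium and fibroblasts, had 0 UMIs in members of both libraries. Epithelial markers nevertheless summed to 86.1 and 100.5 CPM, mostly Cdh1 (76.5 and 94.1 CPM), neutrophil markers to 5 and 3 UMIs and B and plasma cell markers to 3 and 2 UMIs. Of the dendritic cell markers, Fscn1 had 2 UMIs in KO members and 89 in WT members, Flt3 1 and 42, Xcr1 1 and 34, and Clec9a 1 and 31. Ccr7 had 52 and 125 UMIs, Itgax 110 and 214, and Cd209a 19 and 21. The part of RNA of other cell types in these results was not tested.

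The sums of most cytotoxic granule genes were similar in both libraries. Of 21 measured genes of the granule list (of 23), 7 were higher and 14 lower in KO members, beside 45% and 55% of all 6725 genes. Of the 21 genes, 0 passed 2-fold, beside 1.61% of all genes. The median log2 ratio was -0.11 beside -0.03 over all 6725 genes. Gzmb, which cleaves caspases, had 892 CPM in KO members and 1025 CPM in WT members, Nkg7 1119 and 1340 CPM, Srgn, the granule proteoglycan, 1780 and 1304 CPM, and Ctsc, which activates granzymes, 255 and 182.5 CPM. Gzmf was lowest, at 482 and 840 CPM (log2 ratio -0.80). In KO members 258 of its 453 UMIs were in 1 barcode, in WT members 241 of 1598, and without those barcodes the ratio was -1.74. Gzmg, at 217 and 246 CPM, had 157 of its 204 KO UMIs and 110 of its 468 WT UMIs in 1 barcode each. Its ratio of -0.18 was -1.80 without them. The KO sums of Gzmf and Gzmg thus rested mostly on 1 barcode, which the WT sums did not. Granzymes together were 1.31% of all UMIs in KO members and 1.36% in WT members, and Gzmc gave 63.6% and 62.9% of granzyme UMIs. The genes Gzmc to Gzmg lie together on chromosome 14 and are near copies. Of the 50-base words of their transcripts, 4.14% for Gzmc, 21.5% for Gzmd, 19.1% for Gzme, 7.36% for Gzmf and 15.2% for Gzmg occur in another granzyme transcript, so the split of counts among them is uncertain.

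Granzyme C and granzyme A overlapped only in part among the members. In the library labelled KO 18 members had UMIs of both, 20 of Gzma only, 51 of Gzmc only and 7 of neither, and in WT 59, 56, 112 and 20. Spearman's rho between Gzma and Gzmc over members was -0.42 in the library labelled KO (96 members) and -0.49 in WT (247 members), as a description of barcodes that share a library. Gzmc UMIs were found in 71.9% and 69.2% of members and Gzma UMIs in 39.6% and 46.6%. Thinned to 1000 UMIs, the shares were 57.3% (46.8 to 67.3%) and 61.1% (54.7 to 67.2%) for Gzmc, and 31.3% (22.2 to 41.5%) and 34.4% (28.5 to 40.7%) for Gzma, so no difference between the libraries was detectable at this depth.

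**Figure D3:**
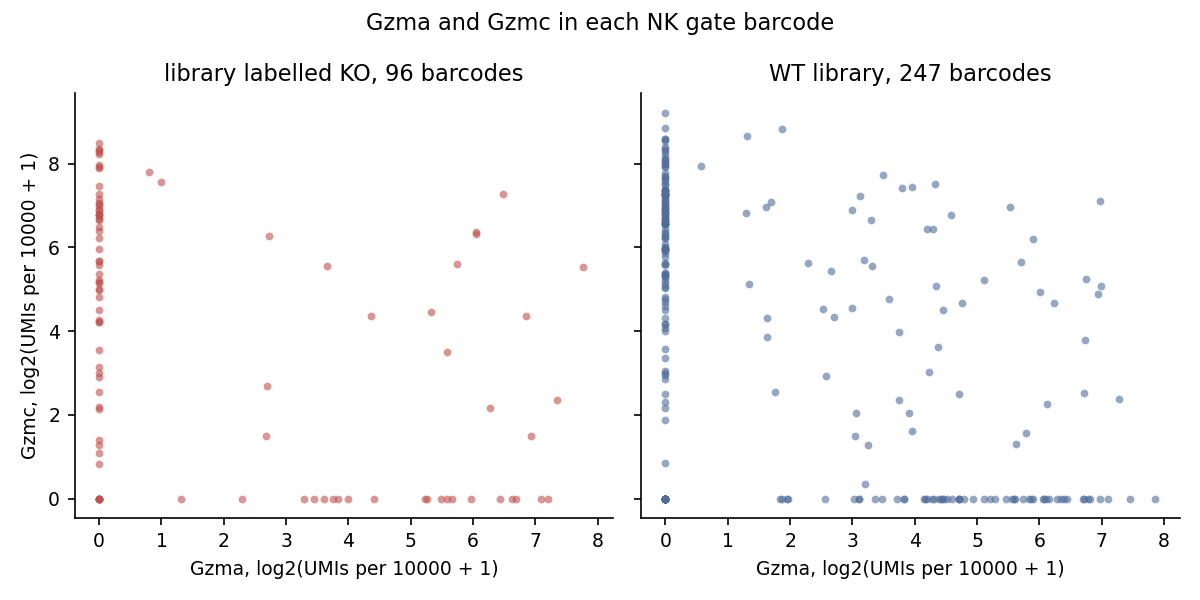
Gzma against Gzmc in each NK gate barcode, as log2 of UMIs per 10000 plus 1, with the library labelled KO on the left and WT on the right. Most barcodes lie on an axis: 51 with Gzmc only and 20 with Gzma only of 96 in the library labelled KO, and 112 and 56 of 247 in WT.

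Gzmd, Gzme, Gzmf and Gzmg were counted only in members that also had a Gzmc UMI, in both libraries. Of Gzmd, 1117 UMIs were in the 69 KO members with a Gzmc UMI and 0 in the 27 without, and 1976 UMIs in the 171 WT members with one and 0 in the 76 without. Against the floor of 3 counts in the members without, Gzmd was at least 82.5-fold higher in KO and at least 159-fold higher in WT members with a Gzmc UMI. Gzme, Gzmf and Gzmg had 514, 453 and 204 UMIs in the KO members with a Gzmc UMI, and 879, 1598 and 468 in the WT members with one, and 0 in those without. These genes were restricted further, since Gzmd was found in 23 of 69 KO and 44 of 171 WT members with a Gzmc UMI. Gzmb and Prf1 were found on both sides, in 51 of 69 and 14 of 27 KO members for Gzmb and 147 of 171 and 41 of 76 WT members. Members with a Gzmc UMI were deeper, at medians of 9204 against 5593 UMIs in KO and 7230 against 3871 UMIs in WT. After thinning to 1000 UMIs, 2 of 41 KO members without a Gzmc UMI and 0 of 96 such WT members had a UMI of Gzmd to Gzmg, against 16 of 55 and 41 of 151 members with one.

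The promoters of Gzmc and of Gzmd, whose UMIs all lay in members with a Gzmc UMI, are shown beside those of Gzma and Gzmb, which were also found in members without one, to compare their letters. They are RefSeq windows of build GRCm38.p6, from 250 bases before to 50 after the gene's start, written 5' to 3' along the gene. The capitals mark the RUNX motif TGTGGT or TGCGGT on either strand (ACCACA or ACCGCA where it reads on the reverse strand).

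Gzmc promoter, chr14:56234608-56234907, minus strand: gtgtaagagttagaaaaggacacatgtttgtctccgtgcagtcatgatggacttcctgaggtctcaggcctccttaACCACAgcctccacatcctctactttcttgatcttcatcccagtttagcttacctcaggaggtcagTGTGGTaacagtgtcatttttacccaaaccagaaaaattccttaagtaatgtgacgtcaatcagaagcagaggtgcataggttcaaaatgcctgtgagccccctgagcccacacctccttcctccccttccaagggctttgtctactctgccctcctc
Gzmd promoter, chr14:56132544-56132843, minus strand: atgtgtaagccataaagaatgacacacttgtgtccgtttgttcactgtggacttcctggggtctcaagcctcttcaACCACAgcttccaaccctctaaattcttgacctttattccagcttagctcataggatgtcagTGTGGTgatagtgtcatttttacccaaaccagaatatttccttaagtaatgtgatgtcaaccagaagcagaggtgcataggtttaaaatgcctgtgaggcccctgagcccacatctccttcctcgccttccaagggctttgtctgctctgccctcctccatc
Gzma promoter, chr13:113100932-113101231, minus strand: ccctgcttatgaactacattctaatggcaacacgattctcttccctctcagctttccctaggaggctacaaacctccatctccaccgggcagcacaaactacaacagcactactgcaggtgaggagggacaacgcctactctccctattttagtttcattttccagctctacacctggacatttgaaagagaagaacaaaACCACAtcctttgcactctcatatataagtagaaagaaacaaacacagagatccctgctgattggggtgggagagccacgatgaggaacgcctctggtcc
Gzmb promoter, chr14:56262285-56262584, minus strand: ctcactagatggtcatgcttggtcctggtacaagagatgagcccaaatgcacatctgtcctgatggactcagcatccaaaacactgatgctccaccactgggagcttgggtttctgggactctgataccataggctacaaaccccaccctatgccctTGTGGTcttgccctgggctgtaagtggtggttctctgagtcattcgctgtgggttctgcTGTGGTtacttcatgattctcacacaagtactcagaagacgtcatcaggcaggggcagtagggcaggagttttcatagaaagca

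Gzmc, Gzmd, Gzme, Gzmf and Gzmg each held ACCACA followed by TGTGGT, with 66 bases between their first letters in Gzmc and 62 in the other 4. Such a pair at any spacing was present in 0.749% of 32851 promoter windows and at these spacings in 0.0426% (14 windows). The spacings were taken from these granzyme windows, which are among the 14. Because the genes are near copies, their windows are not independent cases, and the low share is no test. The Gzma window held ACCACA alone, 50 bases before the start, and that of Gzmb held TGTGGT 93 and 34 bases before it. A motif was present in windows of 7 of the 7 granzymes a to g, of 31.6% of the 500 NK-enriched genes with a window and of 24.7% of 4860 other genes that passed the filter. None was found in the windows of Tbx21, Eomes, Itga1 and Itga2. A match describes letters and does not show binding.

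Other genes also differed between members with and without a Gzmc UMI. Of the 6725 genes, 96 (1.43%) were at least 2-fold higher in members with a Gzmc UMI than in members without in both libraries, and 106 (1.58%) at least 2-fold lower in both. Within 1 library, 9.56% in KO and 3.82% in WT were at least 2-fold higher, and 6.72% and 3.2% at least 2-fold lower. Genes named in this paragraph and the next are among the 15 most different each way in both libraries, or in the fixed lists, and were chosen after values were seen. Spp1, which encodes osteopontin, had 929 CPM in KO members with a Gzmc UMI and 35.2 CPM in those without, and 790 and 16.2 CPM in WT. Sema6d, a semaphorin, had 345 and 0 CPM in KO and 378 and 16.2 CPM in WT, and Myo10, an unconventional myosin, 232 and 5.86 CPM in KO and 179 and 13.5 CPM in WT. Genes lower in members with a Gzmc UMI included a chemokine and receptors. Ccl5, which attracts T cells and monocytes, had 555 CPM in KO members with a Gzmc UMI and 5074 CPM in those without, and 550 and 2713 CPM in WT. Itga2, the CD49b integrin of circulating NK cells, had 7.79 and 99.6 CPM in KO and 11.8 and 135 CPM in WT. Il18r1, a subunit of the IL-18 receptor, had 119 and 621 CPM in KO and 112 and 387 CPM in WT. Itga1 is the CD49a integrin of tissue-resident NK cells and type 1 innate lymphoid cells. Its rho with Gzmc, among 253 gene pairs computed, was 0.46 in KO and 0.48 in WT. Thinned to 1000 UMIs, Itga1 was found in 10 of 55 KO members with a Gzmc UMI and 5 of 41 without. In WT it was found in 35 of 151 and 6 of 96. The part of depth in these rho values was not tested.

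**Figure D4:**
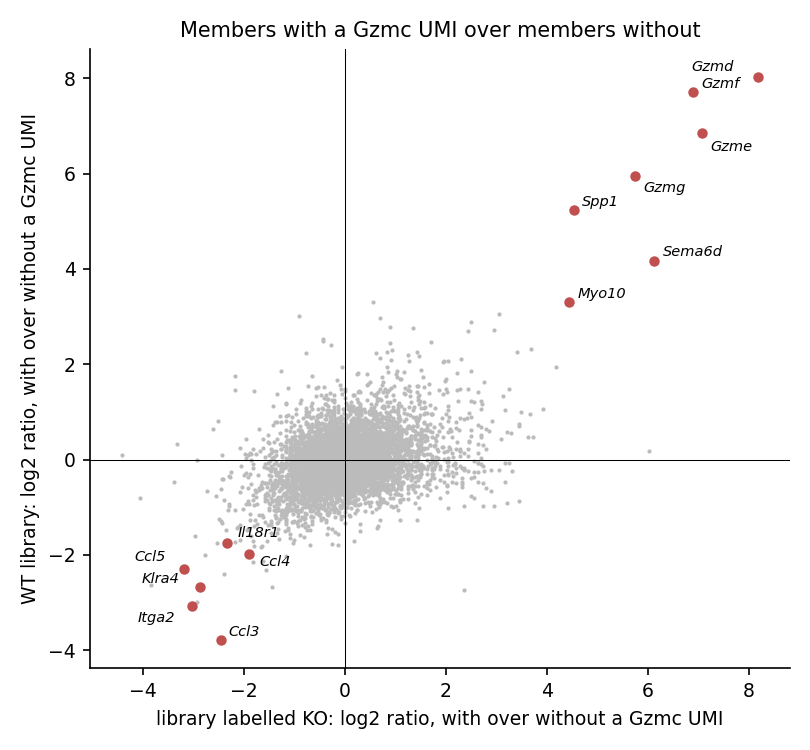
Each point is 1 of the genes that passed the filter, with the log2 ratio of members with over members without a Gzmc UMI (5 CPM added) in the library labelled KO on the x axis and in WT on the y axis. Gzmd, Gzme, Gzmf, Gzmg, Spp1, Sema6d and Myo10 lie at the upper right and Ccl5, Itga2, Klra4, Ccl3, Ccl4 and Il18r1 at the lower left in both libraries.

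The members were also split by Gzma. Of the 6725 genes, 39 (0.58%) were at least 2-fold higher in members with a Gzma UMI in both libraries and 46 (0.684%) at least 2-fold lower. Within 1 library, 3.21% in KO and 1.37% in WT were at least 2-fold higher, and 6.38% and 1.78% at least 2-fold lower. Klra4, the activating receptor Ly49D, had 330 CPM in KO members with a Gzma UMI and 68.1 CPM in those without, and 272 and 22.7 CPM in WT. Myb, a transcription factor of progenitors, had 61.8 and 9.73 CPM in KO and 82.8 and 2.84 CPM in WT. Cd226, the activating receptor DNAM-1, had 37.1 and 191 CPM in KO and 50.8 and 201 CPM in WT. Cxcr6, a chemokine receptor of tissue-resident lymphocytes, had 3.09 and 51.9 CPM in KO and 7.09 and 55.0 CPM in WT. Rora, a nuclear receptor of innate lymphoid cells, had 111 and 366 CPM in KO and 66.2 and 501 CPM in WT. Ccl5 in members with a Gzma UMI was 3354 CPM in KO and 1524 CPM in WT, and in members without one 336 and 527 CPM. Median depths were 6335.5 UMIs with and 8407.5 without a Gzma UMI in KO, and 5709 and 6546.5 in WT.

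Chemokine and cytokine genes leaned higher in KO members. Of 12 measured genes of the list (of 17), 10 were higher and 2 lower, beside 45% and 55% of all 6725 genes. The median log2 ratio was 0.41 beside -0.03 over all genes. At least 2-fold higher were 2, beside 0.848% of all genes. Xcl1, which attracts cross-presenting dendritic cells, had 2041 CPM in KO members (83.3% with a UMI) and 1478 CPM in WT members (91.1%), a log2 ratio of 0.46. Ccl5 had 1375 and 970 CPM, and Ccl4, an inflammatory chemokine, 698 and 453 CPM. Ccl3, a related chemokine, had 188 and 73.6 CPM, a log2 ratio of 1.30. Ccl1 had 91.4 CPM in 9.38% of KO members and 15.3 CPM in 4.45% of WT members, a log2 ratio of 2.25. Ifng, the main effector cytokine of NK cells, had 118 and 101.5 CPM, and Ltb was lower at 177.5 and 243.5 CPM. Outside the gate Ccl3 had 419 CPM in the library labelled KO and 128 CPM in WT, and Ccl4 1145 and 413 CPM, while Xcl1 had 36.8 and 73.0 CPM. The part of free RNA in Ccl3 and Ccl4 was not tested. In members with fewer than 5 macrophage-gene UMIs per 10000, the log2 ratios were 0.18 for Ccl4, 0.21 for Ccl5, 1.61 for Ccl1 and 0.51 for Xcl1. In Y-linked-only members they were 0.43 for Ccl4, 0.41 for Ccl5 and 0.77 for Xcl1. The same list had a median of -0.15 in CD8 T gate barcodes and 0.50 in macrophage gate barcodes.

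The list of immediate early, NF-kappaB feedback and heat shock genes, which respond to activation or to handling of cells, leaned higher in KO members. Of its 24 measured genes (of 26), 20 were higher and 4 lower, beside 45% and 55% of all 6725 genes. The median log2 ratio was 0.28, beside -0.03 over all genes. Fos had 691 CPM in KO members and 423 CPM in WT members, Jun 562 and 223 CPM, Egr1 189 and 92.0 CPM, Nfkbia, the inhibitor of NF-kappaB, 727 and 415 CPM, and Ier3 164 and 45.2 CPM. The heat shock genes Hspa1a (25.5 and 73.6 CPM) and Hspa1b (18.1 and 48.9 CPM) were lower. In Y-linked-only members the list median was -0.06 and Ier3 had a log2 ratio of -1.22. Medians were 0.18 in CD8 T gate and 0.30 in macrophage gate barcodes, and outside the NK gate Jun had 699.96 CPM in the library labelled KO and 456 CPM in WT. The part of free RNA in these values was not tested.

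Receptors, transcription factors and signalling genes were close between the libraries. Of 19 measured activating receptors and adaptors 9 were higher and 10 lower (median log2 ratio -0.07), and of 16 inhibitory receptors 9 and 7 (0.08). Beside these counts and those below, 45% of all 6725 genes were higher and 55% lower (median -0.03). The activating list includes Ncr1 and Klrb1c and the inhibitory list Klre1, which the rule used to choose members. The inhibitory median lay between -0.095 and 0.16 under other settings. Fcgr3, the Fc receptor CD16 of antibody-dependent killing, had 90.4 and 55.7 CPM, and Klrc1, which encodes NKG2A, 261.5 and 198 CPM. Klrd1, its partner CD94, had 1082 and 1102 CPM. No Ly49 gene of 7 was found in 39 of 96 KO members and 96 of 247 WT members. Of 24 transcription factors 10 were higher and 14 lower (median -0.07). Tbx21, which encodes T-bet, had 363 and 397 CPM, Eomes 97.8 and 80.0 CPM, Irf8 802 and 1017 CPM, and Stat4, which carries the IL-12 signal, 555 and 799 CPM, a log2 ratio of -0.52 that was 0.21 in Y-linked-only members. Of 21 cytokine receptor and signalling genes 12 were higher and 9 lower (median 0.07), with Il7r at 63.8 and 31.0 CPM and Jak3 at 10.6 and 25.2 CPM.

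Genes of tissue residency leaned higher in KO members, whereas the directions of some other lists, among them the cell cycle, were not stable. Of 11 measured residency and type 1 innate lymphoid cell genes 9 were higher and 2 lower in KO members (median log2 ratio 0.30). For all list counts in this paragraph, the shares over all 6725 genes were 45% higher and 55% lower (median -0.03). Rgs1, a regulator of chemokine signalling, had 1325 and 1041 CPM, Itgb1 559 and 453 CPM, Cd69 179 and 129 CPM and Itga1 208 and 201 CPM, while Itgb7, the integrin beta chain of gut homing, had 71.2 and 114 CPM. Of 12 genes of circulating and mature NK cells 7 were higher and 5 lower (median 0.11, and -0.28 to 0.15 under other settings). Itgam had 46.8 and 20.5 CPM and Ly6c2 203 and 302 CPM. Of 20 cell cycle genes 8 were higher and 12 lower (median -0.30), with Ube2c at 26.6 and 61.5 CPM and Tubb5 at 247 and 380 CPM. This median was 0.17 with no macrophage limit, 0.15 after thinning to 1000 UMIs, 0.29 in CD8 T gate and 0.29 in macrophage gate barcodes, so its direction depended on these settings. The share of members with UMIs of both Mki67 and Top2a was 8.33% (8 of 96, 3.67 to 15.8%) in KO and 8.10% (20 of 247, 5.02 to 12.2%) in WT. Those members were deeper, at medians of 14309 UMIs against 7139 for the rest in KO and 10394.5 against 6173 in WT. Thinned to 1000 UMIs, a UMI of any of Mki67, Top2a, Ccnb1, Ccnb2, Ccna2, Cdk1, Birc5, Ube2c, Cenpf and Cenpe was found in 16.7% (9.84 to 25.7%) of KO members and 10.9% (7.33 to 15.5%) of WT members, whose intervals overlap. Of 23 interferon response genes 7 were higher and 16 lower (median -0.19), with Gbp5 at 17.0 and 30.5 CPM. Rsad2, an antiviral enzyme, had 69.1 and 18.4 CPM, a log2 ratio of 1.66 that was 0.73 without the top barcode of each library. Of 15 MHC class I genes 1 was higher and 14 lower (median -0.16), with Tapbp at 134 and 193 CPM and B2m at 2017 and 1836 CPM. The MHC class I median was 0.07 in Y-linked-only members, -0.12 in CD8 T gate and -0.19 in macrophage gate barcodes, and the interferon response median was -0.06 in CD8 T gate and -0.35 in macrophage gate barcodes. Of 21 glycolysis and hypoxia genes 15 were higher and 6 lower (median 0.14), with Bnip3 at 36.1 and 18.9 CPM and Gapdh at 1027 and 1227 CPM, and this median was -0.27 in Y-linked-only members and -0.22 with no macrophage limit.

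**Figure D5:**
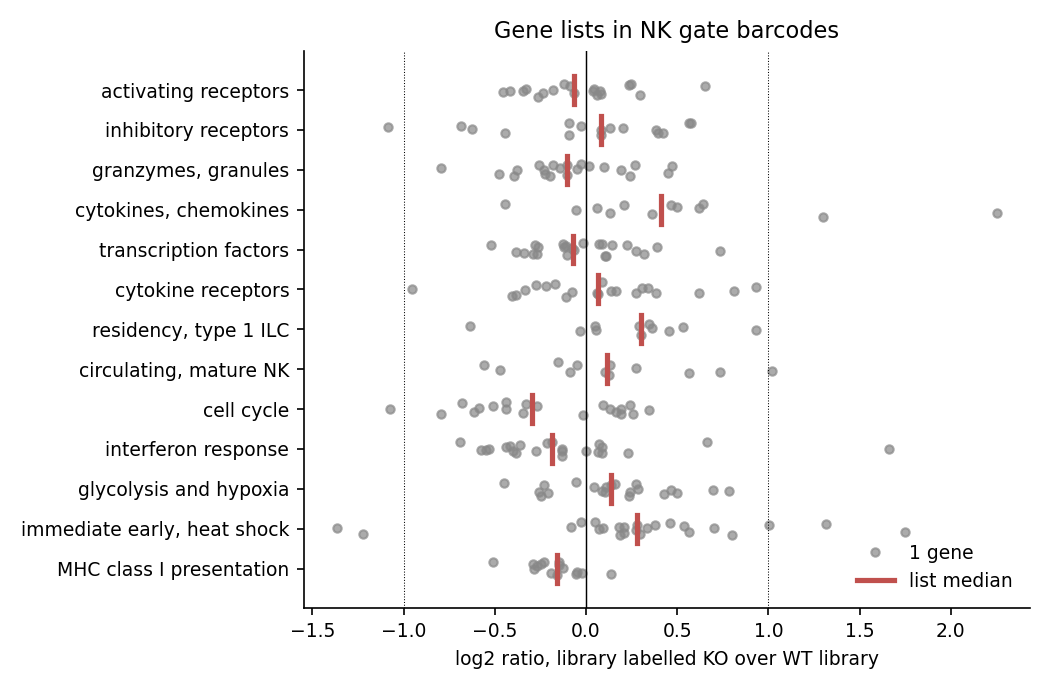
Log2 ratio of KO members over WT members of the NK gate for each measured gene of 13 lists (grey points), with the median of each list as a bar and 2-fold marked by dotted lines. Medians lie between -0.30 for the cell cycle and 0.41 for cytokines and chemokines, and most genes stay within 2-fold. The cell cycle median turned to 0.17 with no macrophage limit, and that of glycolysis and hypoxia fell as low as -0.27 under other settings.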

How the data were processed

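The authors deposited unnormalized UMI counts for each gene in each barcode, in a matrix for every library. They come from Cell Ranger 8.0.1, per the file headers, and the submitters' processing notes name mm10 and Seurat 3. The labels describe a microwell chip with barcoded beads. The files hold 62465176 UMIs for the library labelled KO and 85367638 for WT, over 55357 features each. Gene coordinates come from GENCODE M21 and promoter windows from RefSeq.

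Members were found by the gate, and their counts were summed per library and divided by the members' total (Python 3.11.15, numpy 2.4.6, scipy 1.17.1, pandas 2.3.3). Members held 940659 UMIs in the library labelled KO and 1901257 in WT, 1 library each, and no count model was fitted. Intervals are exact Poisson for levels and ratios and exact binomial (Clopper-Pearson) for shares. The summing and intervals were tested on simulated sums drawn from a Poisson distribution. Such sums lack the clumping of UMIs in single barcodes seen here, so the test says nothing about that clumping. No doublet caller was run, and the gate's Cd3 and macrophage limits, the deepest barcodes and those with both Xist and Y-linked UMIs stand in alternatives. Thinning to 1000 UMIs left out 0 members. The mesenchymal gate needs at least 50 UMIs of Col1a1, Col1a2 and Col3a1 per 10000 and at most 1 Ptprc UMI.

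Named genes are the 7 markers, Runx3, Runx1, Runx2 and Cbfb, the 10 highest and 10 lowest ratios over all genes and over NK-enriched genes, the 4 list members with most counts and the highest and lowest ratio of each list, and the leading marker of each other cell type. The rankings passed over sex-linked (Xist, Y), antigen receptor, globin, ribosomal and mitochondrial genes and those with only a clone-style name. Gzmb, Gzmd, Gzme, Gzmg, Ccl3, Ifng, Tbx21, Eomes, Itga1, Cd69, Jun, Egr1, Hspa1b, Cd14, the T cell and innate lymphoid cell genes and those of the Gzma and Gzmc splits lie outside this rule and were chosen after their values were seen. The members and lists were chosen with earlier results of these data known.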

Additional observations from a re-analysis of the deposited data

How the results depend on the processing

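No paired analysis was possible because each group is 1 library. The ratio of NK gate shares lay between 0.469 and 0.660 over 15 alternatives, with 0.469 after thinning to 1000 UMIs. Of 2592 values of the 122 named genes under 24 alternatives, 326 lay outside the counting interval of the reported ratio and 133, from 51 genes, had the opposite sign. Among genes at least 2-fold apart as reported, 4 values did so. These were Thbs1 with fewer than 5 macrophage-gene UMIs per 10000 (-0.21) and in Y-linked-only members (-0.80), Col3a1 with no macrophage limit (-0.058) and Ier3 in Y-linked-only members (-1.22). The 57 genes at least 2-fold higher became 26 with fewer than 5 macrophage-gene UMIs, 33 with no macrophage limit, 36 without barcodes with Xist and Y-linked UMIs, 129 at a minimum of 20 UMIs, 19 at 200 UMIs, 8 after thinning, and 34 without members rich in RNA of other cells, an alternative chosen after seeing the data. The 51 genes at least 2-fold lower became 101 with fewer than 5 macrophage-gene UMIs, 29 with no macrophage limit, 31 without the deepest 5% of barcodes, 310 in Y-linked-only members, 82 and 13 with 1 and 20 CPM added, 118 and 6 at minima of 20 and 200 UMIs, 14 after thinning, and 86 without each gene's top barcode, also chosen after seeing the data. The 3 NK-enriched genes past 2-fold became 21 in Y-linked-only members, 0 with 20 CPM added, 6 and 0 at minima of 20 and 200 UMIs, 6 with each barcode weighted alike and 6 without the top barcode. Of 298 list medians 24 had the opposite sign. Glycolysis and hypoxia gave 6 of them, inhibitory receptors 4, circulating and mature NK cells 4 and the cell cycle 3. Of the 298, 3 lay farther from the reported median than the typical (median) half-width of its genes' counting intervals. These were glycolysis and hypoxia at -0.22 with no macrophage limit and -0.27 in Y-linked-only members, and immediate early genes at -0.059 in Y-linked-only members. The cause of these shifts was not tested. Only 23 KO members were Y-linked-only, which limits those values.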
